A study of Mus musculus with 8 samples.

Results

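The sarcomeric myosin heavy chains were followed here in the tibialis anterior muscle of mice after oral administration of Porphyromonas gingivalis. The group was taken as every non-control probe that the array design assigns to Myh1, Myh2, Myh3, Myh4, Myh6, Myh7, Myh7b, Myh8 or Myh13. This gave 20 of the 56605 distinct probes on the array, for 9 genes. Of these, 13 were well above background on all 8 arrays and were tested, at least 1 for each of the 9 genes. Among the other 7, 6 were well above background on no array, and 1 probe of Myh7b was so on 1 control array only.

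A myosin heavy chain forms the head, neck and rod of the motor protein of the thick filament, and its head binds actin and splits ATP. Each sarcomeric gene encodes a motor of its own speed, so the isoform a fibre expresses is used to name the fibre type. In adult rodent limb muscle these are Myh4 in IIb, Myh1 in IIx, Myh2 in IIa and Myh7 in slow type I fibres, while Myh3 and Myh8 are known from embryonic, perinatal and regenerating fibres. Tibialis anterior is known as a fast muscle in which IIb and IIx fibres prevail.

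All samples were tibialis anterior of male C57BL/6J mice aged 14 weeks, and the label protocols give a high-fat diet (named High-fat diet 32) with no lean-fed arm among these samples. The 4 control samples carry no statement of what the mice received in place of bacteria. The 4 P. gingivalis samples came from mice given the bacterium by feeding needle, in 100 µL of saline, for 6 weeks from the age of 8 weeks. The labels give neither the bacterial strain nor the dose. The labels do not say outright that each sample is a separate mouse. If they are not, the p-values measure only the spread between samples.

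Cy3-labelled cRNA from each sample was read on 1 array, all 8 on 1 slide. On each array, 59305 non-control spots were read, 56.3% to 59.3% of them well above background and 0 saturated. All levels below are log2 of the processed signal less the 75th percentile of the array's non-control spots. Before scaling, controls had percentiles of 275 to 306, higher than the 238 to 255 of the bacterial group. Controls filled slide row 1 and P. gingivalis arrays row 2, and the effects of row and group cannot be told apart. In the deposited value table, each of the 8 columns matched 1 scanner array (r 0.851 to 0.904, next best at most 0.0772), but only 4 columns matched an array labelled with the same group. Groups here are those of the scanner files. Values under the value table's grouping are given for some results only, and a result without them is not thereby stable. The tissue label was checked against 8 skeletal muscle markers, and all 8 were measured well above background. Of 9 heart markers, 7 were not, namely Nppb, Myl7, Tnni3, Ryr2, Tbx5, Nkx2-5 and Tbx20.

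The 6 members on chromosome 11 lie in a row on the plus strand, with 14 probes over 290.9 kb (mm9, per the file headers). Myh6 and Myh7 together have 4 probes over 39.5 kb of chromosome 14 on the minus strand, and Myh7b has 2 on chromosome 2. Such neighbours are near copies of each other, so the probe letters were compared between members. Probes were set against probes only, often from different places in the transcripts, and not against whole transcripts. The counts below therefore cannot show which members a probe tells apart. Among 174 pairs of probes of different members, only 1 pair shared a run of 15 bases or more. It joined the Myh8 probe at chr11:67121925-67121984, the single Myh8 probe with a signal, to the Myh1 probe at chr11:67037938-67037997. The Myh8 probe is shown because the results turn on it, with the shared 19 bases in capitals, and of the Myh1 probe only that run is given.
Myh8 probe: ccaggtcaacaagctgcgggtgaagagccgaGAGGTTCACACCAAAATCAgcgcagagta
Myh1 shared run: GAGGTTCACACCAAAATCA
The same Myh8 probe shares 11 bases with the Myh13 probe at chr11:67184494-67184553, in capitals in the next line. Over their best ungapped offset of 43 bases, 29 were identical.
Myh13 probe: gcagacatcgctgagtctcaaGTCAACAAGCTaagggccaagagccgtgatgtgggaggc
At the start of the transcripts, the Myh2 probe at chr11:66986757-66986816 and the Myh8 probe at chr11:67092501-67092560 can be aligned over 57 bases. Of these 42 are identical, with the longest shared run, of 12 bases, in capitals below.
Myh2 head probe: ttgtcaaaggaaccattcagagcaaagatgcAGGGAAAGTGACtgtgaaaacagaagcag
Myh8 head probe: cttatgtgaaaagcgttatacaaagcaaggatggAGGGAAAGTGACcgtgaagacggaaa
The Myh2 head probe was well above background on all 8 arrays, while the Myh8 head probe, alike in 73.7% of the aligned bases, was so on none. The median over the 174 pairs was 43.1%. No other probe of the array shared 20 bases or more with a probe of the group. Whether a probe also binds transcripts of another member was not tested.

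**Figure D1:**
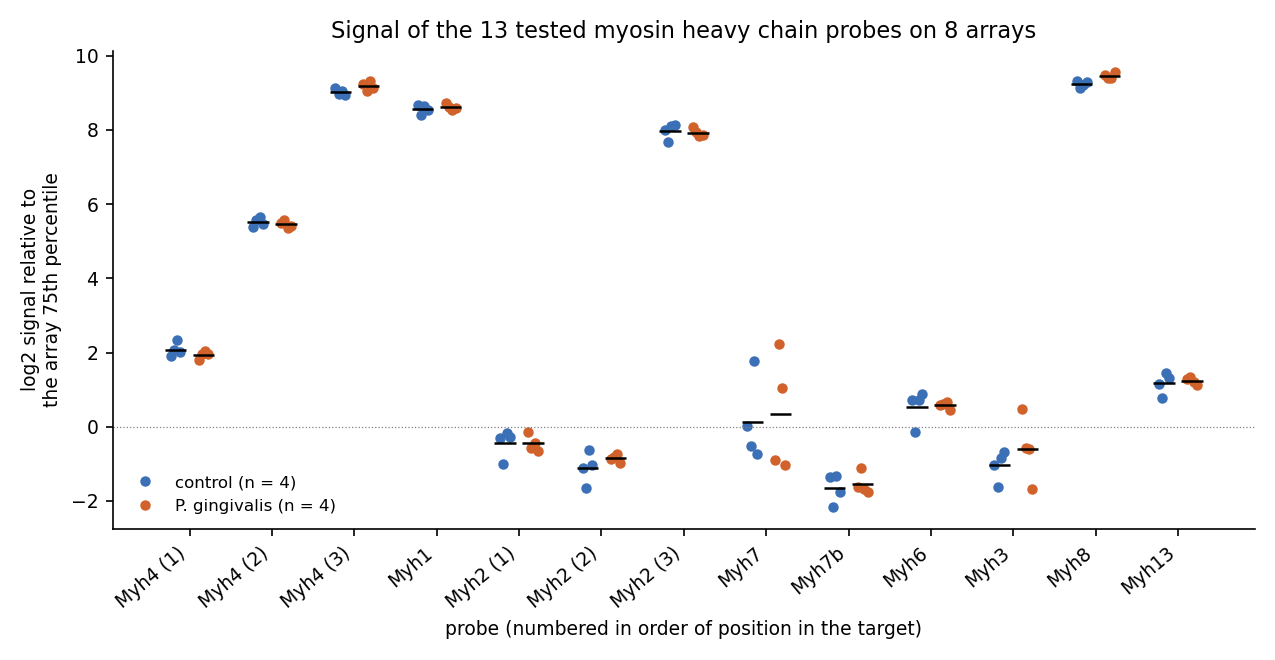
Log2 signal relative to the array 75th percentile (y axis) for the 13 tested probes (x axis), with 1 point per array, 4 control and 4 P. gingivalis arrays per probe, and a bar at each group mean. Levels of different probes are not levels of different transcripts, since probes differ in brightness. The Myh7 points spread from -1.03 to 2.23, and Myh8 is the probe whose groups do not overlap.

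None of the 7 tested probes of the adult fast isoforms passed the test in either direction. Myh4, the motor of IIb fibres, was read by 3 tested probes. At its 3′ probe (chr11:67073834-67073893) the level was 9.14, 8.96, 9.05 and 8.93 in control arrays 1 to 4 and 9.22, 9.06, 9.31 and 9.14 in P. gingivalis arrays 1 to 4. Of the 4 P. gingivalis arrays, 3 lay above the highest control, and P. gingivalis array 2 lay among the controls. The log2 difference, P. gingivalis minus control, was 0.16 (SE 0.08, 1.12-fold) and did not pass (limma with Benjamini-Hochberg adjustment, adjusted p = 0.470). It was 0.01 under the value table's grouping. The remaining Myh4 probes had differences of the opposite sign. One at chr11:67054219-67054278 read 5.38, 5.56, 5.65 and 5.47 in the controls and 5.49, 5.57, 5.36 and 5.42 after P. gingivalis, a difference of -0.05 (SE 0.08). The other, whose target spans 1816 bases of genome at chr11:67052302-67054117 and so crosses an intron, differed by -0.13 (SE 0.10). Under the value table's grouping this last probe differed by 0.16. The groups overlapped at both of these probes, so the 3 Myh4 probes gave no common direction.

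Myh1, the motor of IIx fibres, read 8.66, 8.40, 8.64 and 8.54 in the controls and 8.74, 8.62, 8.54 and 8.59 after P. gingivalis. The 2 sets of values overlapped, with a difference of 0.06 (SE 0.08, limma adjusted p = 0.792, 95% confidence interval -0.12 to 0.24), and the whole range over 8 arrays was 1.26-fold. Myh2, the motor of IIa fibres, read 7.98, 7.67, 8.11 and 8.12 in the controls and 8.07, 7.95, 7.83 and 7.87 after P. gingivalis at its 3′ probe (chr11:67010910-67010969). Control array 2 was the lowest of the 8 there, and the difference was -0.04 (SE 0.11). At the Myh2 head probe the values were -0.30, -1.01, -0.18 and -0.28 in the controls and -0.15, -0.58, -0.43 and -0.65 after P. gingivalis. Control array 2 was again the lowest, and the group means were -0.44 and -0.45. The remaining Myh2 probe (chr11:66987588-66987647), designed to another transcript of the gene, differed by 0.25 (SE 0.19, unadjusted p = 0.214).

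Myh7, the slow motor of type I fibres, varied more between samples than any other member, and its variation did not follow the groups. At chr14:55589581-55589640 the controls read 0.01, -0.51, 1.76 and -0.74. The P. gingivalis arrays read -0.90, 2.23, 1.04 and -1.03. High arrays were found in both groups, namely P. gingivalis 2 and 3 and control 3, and low arrays too. The span from lowest to highest was 9.52-fold, and the spread within groups was larger than for 99.9% of the 31649 tested probes. The group difference was 0.20 with a standard error of 0.83, and its 95% confidence interval ran from -1.69 to 2.09 on the log2 scale, which is a ratio of P. gingivalis to control from 0.310 to 4.26. Leaving out P. gingivalis array 2 turned the difference to -0.43. In bulk muscle RNA, fewer fibres of a type and less RNA per fibre cannot be told apart. The second Myh7 probe (chr14:55600186-55600245), designed to another transcript, was well above background on no array.

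The slow myosin varied together with some of its sarcomere partners. Over the 8 arrays Myh7 was correlated with Tnnc1, the slow and cardiac troponin C (Pearson r = 0.95, exact permutation adjusted p = 0.0032 over the 10 genes of the list, Spearman rho = 0.93). It was correlated as well with Tnni1 and Tnnt1, the slow troponins I and T (r = 0.90 and 0.88, rho = 0.90 and 0.86), and with Atp2a2, the slow fibre calcium pump (r = 0.92, rho = 0.74). The two-sided exact permutation adjusted p of these 3 was 0.0041, 0.0099 and 0.0099 for r. For rho the adjusted p was 0.0223 for Tnnc1, 0.0228 for Tnni1, 0.0357 for Tnnt1 and 0.115 for Atp2a2, the last not passing. The slow and fast partner lists were chosen with earlier results of these data known. These p-values therefore describe the arrays and are not an independent test. P. gingivalis array 2 was the highest and P. gingivalis array 4 the lowest of the 8 for Myh7, Tnnc1, Tnni1 and Atp2a2. Tnnc1 read -1.64, -2.29, -1.24 and -2.38 in the controls and -2.10, -1.09, -1.51 and -2.50 after P. gingivalis, a range of 2.66-fold against 9.52-fold for Myh7. Without P. gingivalis 2 and control 3, the arrays farthest from the Myh7 median, r was 0.88 for Tnnc1, 0.83 for Atp2a2, 0.73 for Tnnt1 and 0.70 for Tnni1. With P. gingivalis 2 alone left out, Tnnc1 passed (r = 0.93), while Tnni1, Atp2a2 and Tnnt1 had adjusted p of 0.0681, 0.0681 and 0.0888.

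The other 6 slow partners did not pass, and none of 12 fast partners did (r from -0.34 to 0.33, lowest exact permutation adjusted p = 0.913). Myl2, the slow regulatory light chain, ranged over 3.82-fold but reached only r = 0.35. It was highest on P. gingivalis array 1, where Myh7 was among the lowest. Myl3, Myl6b, Casq2, Myoz2 and Tpm3 had r of 0.11, 0.24, -0.05, 0.42 and -0.58. Within the 4 controls r was 0.93 for Tnnc1 and within the 4 P. gingivalis arrays 0.97, as a description of 4 points each.

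**Figure D2:**
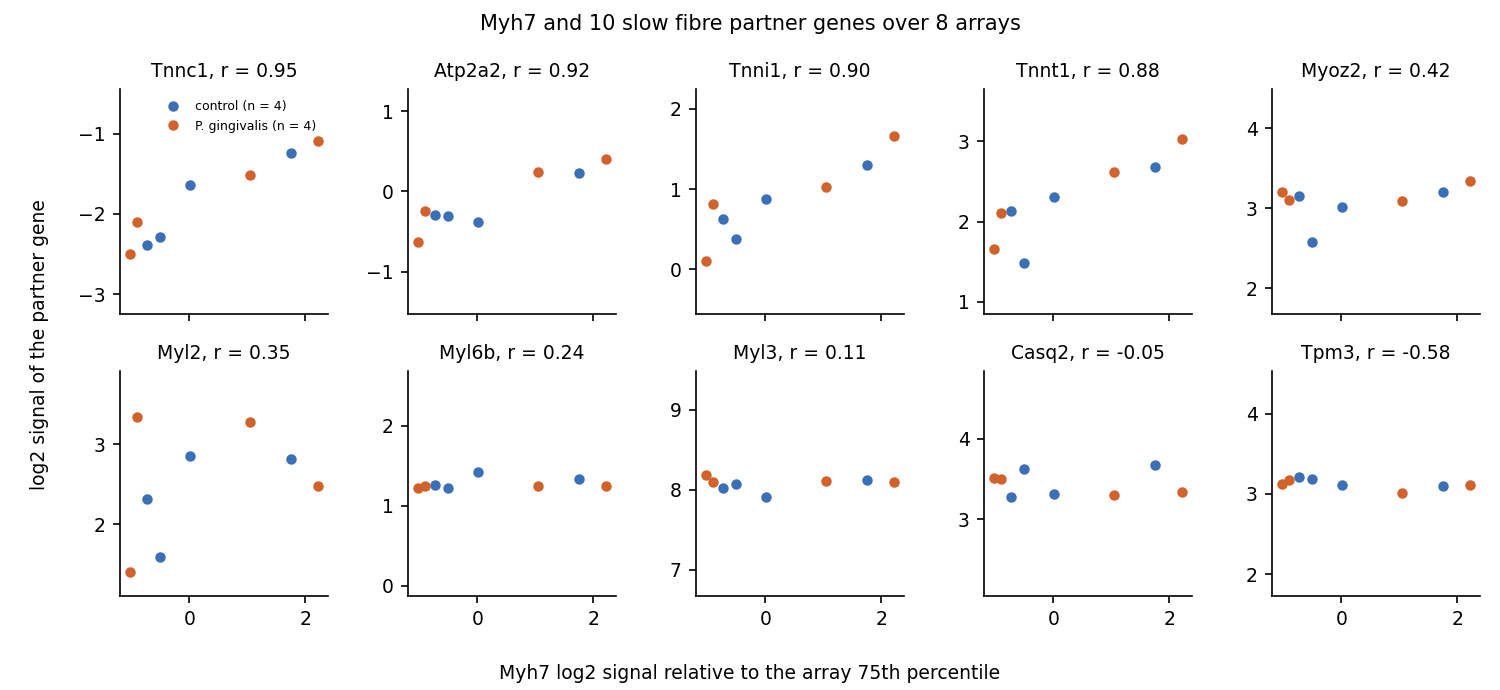
Each panel plots the log2 signal of 1 slow fibre partner gene (y axis, all panels spanning the same number of log2 units) against that of Myh7 (x axis), both relative to the array 75th percentile, with 1 point per array. Tnnc1, Atp2a2, Tnni1 and Tnnt1 rise along with Myh7 in both groups (r of 0.88 to 0.95), while Myl2 and the others do not follow it.

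The 2 other members of the Myh7 branch did not pass the test. Myh6, the fast cardiac motor encoded next to Myh7, read 0.72, -0.16, 0.71 and 0.87 in the controls and 0.60, 0.60, 0.67 and 0.45 after P. gingivalis (chr14:55560774-55560833). Apart from control array 2 all arrays lay close together, and the difference was 0.04 (SE 0.21). Without control array 2 it was -0.19, and under the value table's grouping 0.23. The head probe of Myh6 (chr14:55584132-55584191) was well above background on no array. Myh7b, a slow-tonic myosin whose gene also hosts a microRNA, read -1.35, -2.16, -1.34 and -1.76 in the controls and -1.63, -1.11, -1.68 and -1.76 after P. gingivalis at chr2:155459115-155459174. The groups overlapped, with a difference of 0.11 (SE 0.21). Over the 8 arrays Myh7b had r = 0.71 with Myh7, the highest that any member had with it, against r from -0.21 to 0.49 for the other 7. These are descriptions over 8 arrays that share their scaling.

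Myh8, known as the perinatal myosin, had the lowest p of the group, at its 3′ probe. The controls read 9.32, 9.13, 9.20 and 9.28. After P. gingivalis the values were 9.48, 9.40, 9.39 and 9.55. Every P. gingivalis array lay above every control array, with means of 9.24 ± 0.09 and 9.46 ± 0.07 (SD, n = 4 each). The difference was 0.22 (SE 0.07, 95% confidence interval 0.06 to 0.38), or 1.17-fold. It did not pass after adjustment over all probes (limma unadjusted p = 0.0115, adjusted p = 0.355). Over the alternatives run the adjusted p lay between 0.0874 (normexp background correction) and close to 1 (the value table), and the difference kept its sign in all 19. Under the value table's grouping the difference was only 0.02. Over the 4 arrays whose group both sources share, which are control 1 and 2 and P. gingivalis 3 and 4, it was 0.24 (limma adjusted p = 0.592). Quantile normalization gave 0.10, and leaving out any 1 array gave 0.19 to 0.25.

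The 3 other Myh8 probes were well above background on no array. They lie at chr11:67092501-67092560, chr11:67095524-67095583 and chr11:67108324-67108383, and the first is the head probe printed above. So of 4 probes designed to Myh8 only the 3′ probe had a measured level, and it shares a 19-base run with the Myh1 probe. Its median over the 8 arrays, 9.36, was the highest of the 13 tested member probes. The 3′ probe of Myh4 had 9.10 and the Myh1 probe 8.60, though levels of different probes are not levels of different transcripts. The 3′ probe of Myh8 starts at base 5937 of its target, and the head probe at base 326 of the same target. The probes at chr11:67095524-67095583 and chr11:67108324-67108383 were designed to other transcripts, where they start at bases 2202 and 2970. Starts in different targets cannot be ranked together. Which of these traits goes with the measured level was not tested. Over the 8 arrays the Myh8 probe had r = 0.56 with the Myh1 probe and r = 0.64 with the 3′ probe of Myh4, given as a description. The 224 tested probes with a mean level of at least 8, among which it falls, had a median difference of 0.07, against -0.02 over all 31649 tested probes. Summed levels of the tendon markers, carried mostly by Thbs4, were 4.29 to 4.83 in the controls and 4.85 to 5.18 after P. gingivalis. All 5 tested tendon markers had a higher mean (median difference 0.31), but the groups overlapped for each of them. The list's median of levels, each centred on its gene's mean, overlapped too (-0.80 to 0.22 and -0.06 to 0.39). Summed smooth muscle markers were 8.29 to 8.42 and 8.45 to 8.59, which is Acta2 almost alone, the only 1 of the 5 tested without overlap. Acta2 differed by 0.16, and by 0.04 with overlap under the value table's grouping. Of the 5 tested, 3 had a higher mean, Cnn1 differed by -0.37 and Smtn by -0.06. This list's median of centred levels overlapped (-0.15 to 0.12 and -0.12 to 0.16). The part of either list in the Myh8 result was not tested.

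Myh3, the embryonic myosin, varied 4.41-fold over the arrays at its 3′ probe (chr11:66915724-66915783), a within-group spread larger than for 98.8% of tested probes. The controls read -1.04, -1.61, -0.83 and -0.69, and the P. gingivalis arrays 0.47, -0.57, -0.61 and -1.67. P. gingivalis arrays 1 to 3 lay above all controls, and P. gingivalis array 4 was the lowest of the 8. The difference of 0.45 had a standard error of 0.41 (limma adjusted p = 0.696) and was -0.26 under the value table's grouping. The head probe of Myh3 (chr11:66893627-66893686) was well above background on no array. Myh13, known from the very fast fibres of the eye muscles, read 1.16, 0.78, 1.45 and 1.31 in the controls and 1.30, 1.35, 1.19 and 1.12 after P. gingivalis. Its groups overlapped, with a difference of 0.07 (SE 0.14).

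**Figure D3:**
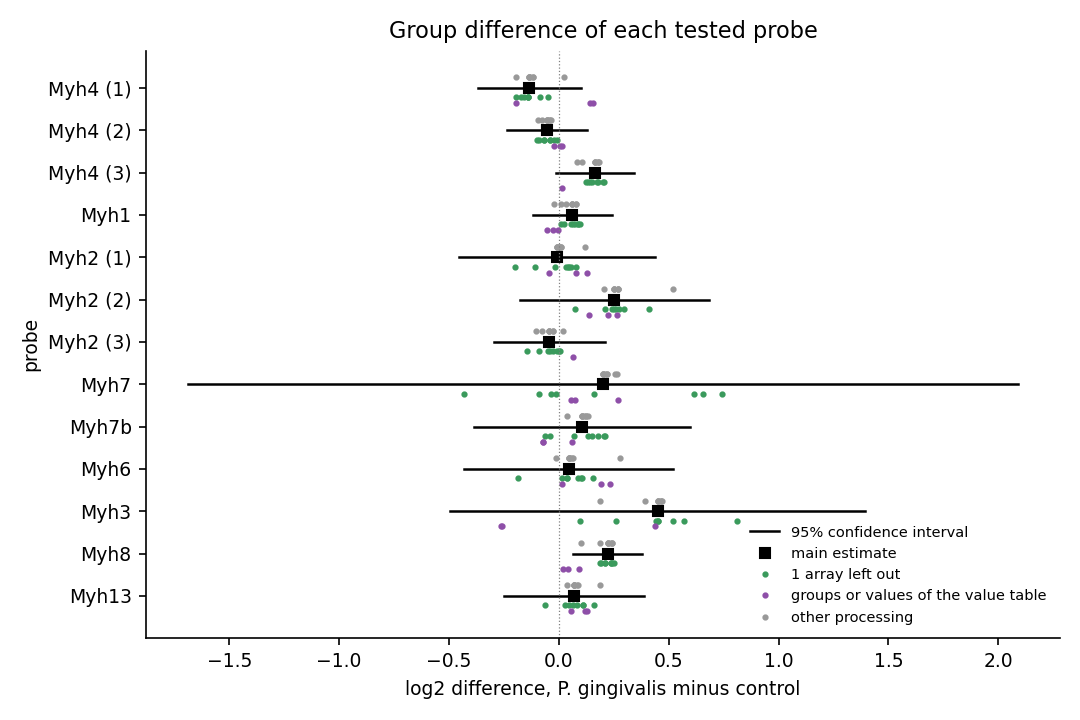
Log2 difference of P. gingivalis minus control (x axis) for each of the 13 tested probes (y axis, probes of a gene numbered by the start base of each in its own target). Squares are the main estimates, lines their 95% confidence intervals, green points the values with 1 array left out, purple points those with the groups or values of the value table and grey points other processing. The interval of Myh8 lies above 0 and those of the other 12 probes include 0, with Myh7 the widest.

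Across the group, none of the 13 tested probes passed the adjusted threshold of 0.05, as was the case for 0.0% of all 31649 tested probes by limma. At an unadjusted p under 0.05 there was 1 of the 13, the Myh8 probe, against 11.2% of all tested probes (3544 probes, with 4.84% higher and 6.36% lower). It was also the 1 probe of the 13 whose groups did not overlap, against 6.67% of all tested probes (3.01% higher and 3.66% lower after P. gingivalis). A count of 1 in 13 is near either background. Of the 13, 9 had a higher and 4 a lower mean after P. gingivalis, against 45.7% of all tested probes higher. This count fell to 5 higher without control array 2. The median difference was 0.07. With the value table's groups 9 of 13 were higher, with a median of 0.05, and the groups overlapped for all 13.

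Whether the adult isoforms shifted against each other was read as the difference between their 3′ probes within each array, which does not depend on the scaling by a percentile. Myh2 minus Myh4, the comparison of IIa with IIb, was -1.15, -1.28, -0.95 and -0.81 in the controls and -1.16, -1.11, -1.48 and -1.27 after P. gingivalis. These values carry the brightness of each probe, so only their change between arrays can be read. The group means differed by -0.21, and the groups overlapped (two-sided exact permutation p = 0.229, adjusted over 6 pairs p = 0.686). With 4 arrays a group the smallest possible p is 0.0286. Myh1 minus Myh4 differed by -0.10 (exact permutation p = 0.257) and Myh2 minus Myh1 by -0.11 (exact permutation p = 0.343). The pairs that hold Myh7 differed by 0.04 against Myh4, 0.14 against Myh1 and 0.24 against Myh2, with exact permutation p of at least 0.914. Over the 9 pairs that the tested probes of Myh2 and Myh4 allow, the difference was negative in 2 and positive in 7. It was highest, at 0.39, between the Myh2 probe of the other transcript and the intron-spanning Myh4 probe. There the groups did not overlap (-3.70 to -2.97 in the controls, -2.95 to -2.68 after P. gingivalis), with the smallest possible exact permutation p of 0.0286, unadjusted, while the other 8 pairs overlapped. The probes thus gave no common direction for this pair of isoforms.

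**Figure D4:**
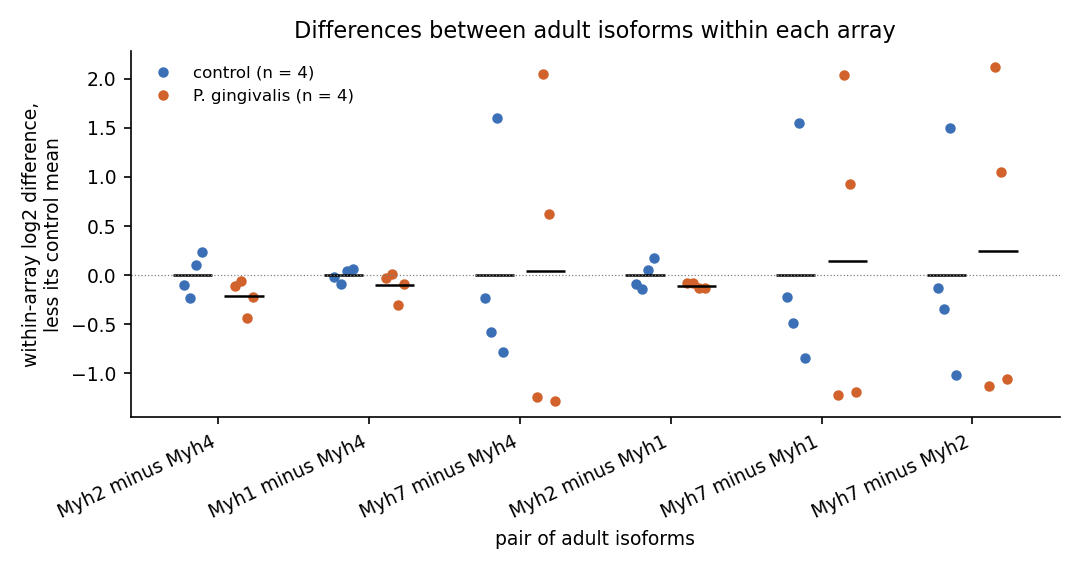
Within-array log2 difference between the 3′ probes of 2 adult isoforms, less its control mean (y axis), for 6 pairs (x axis), with 1 point per array and a bar at each group mean. Groups overlap in all 6 pairs, and the 3 pairs that hold Myh7 spread over more than those of the fast isoforms.

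Another 3 transcripts of the chromosome 11 cluster and 1 of the chromosome 14 pair had probes between or beside the members. Gm12300, now named Myhas, is read from the opposite strand by a probe at chr11:67038002-67038061, just past the Myh1 probe. It read -1.84, -1.67, -1.28 and -1.57 in the controls and -1.41, -1.22, -1.20 and -1.41 after P. gingivalis. All controls but array 3 lay below the lowest P. gingivalis array, with a difference of 0.28 (SE 0.12, limma unadjusted p = 0.0517, adjusted p = 0.447), and 0.17 under the value table's grouping. The probe of 2310065F04Rik (chr11:66927515-66927574, minus strand) read 5.62 ± 0.19 in the controls and 5.73 ± 0.03 after P. gingivalis (SD, n = 4), a difference of 0.10, or -0.08 under the value table's grouping. AK035006 and Mhrt, the latter an RNA transcribed against Myh7, were well above background on no array.

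The genes that work with the fast myosins shared a direction by the scanner labels, while the fast myosin probes themselves did not. The 2 sides were read differently, each partner by its brightest tested probe and the fast myosins by all their tested probes. At the brightest tested probe of each, Myh4 differed by 0.16, Myh1 by 0.06 and Myh2 by -0.04. The part of probe choice in this contrast was not tested. All 12 tested fast fibre partners had a higher mean after P. gingivalis (median difference 0.12, range 0.05 to 0.25), none past the adjusted threshold. Of the 12, 11 had a mean level of at least 8, and of the 224 tested probes that bright 71.9% were higher, with a median of 0.07, against 45.7% of all tested probes. Only 4 of the 12 were higher under the value table's grouping. The groups did not overlap for 3 of the 12, against 7.07% of all 16004 tested genes (3.25% higher and 3.82% lower). These were Myl1 and Mylpf, the essential and regulatory light chains that clasp the neck of fast myosin, and Pvalb, a calcium buffer of fast fibres. Myl1 read 9.68, 9.52, 9.58 and 9.56 in the controls and 9.91, 9.79, 9.84 and 9.78 after P. gingivalis. Its difference was 0.25 (SE 0.06, limma unadjusted p = 0.0038, adjusted p = 0.323). Mylpf differed by 0.15 (SE 0.07), Tnni2, the fast troponin I, by 0.15 (SE 0.07) and Pvalb by 0.11. The list's median was 0.05 after quantile normalization and -0.02 under the value table's grouping, where Myl1 was at -0.03, Mylpf at 0.09, Tnni2 at -0.08 and Pvalb at -0.0046, all with overlap.

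Of 10 slow fibre partners, 7 had a higher and 3 a lower mean (median 0.10), with groups overlapping in all 10. Leaving out control array 2 or P. gingivalis array 2 turned this median to -0.03, leaving out control array 3 or P. gingivalis array 4 raised it to 0.27 and 0.26, and it was 0.02 without P. gingivalis array 3. By the value table's groups 4 of 10 were higher (median -0.01). The 3 of lowest p were Myoz2, a Z-disc protein, at 0.20 (SE 0.14), the slow light chain Myl3 at 0.09 (SE 0.07) and the light chain Myl6b at -0.07 (SE 0.06). Among developmental and regeneration genes 13 of 15 could be tested, 8 higher and 5 lower (median 0.09). Mymx, which drives fusion of myoblasts, differed by 1.73 with a standard error of 0.84 and was well above background on 4 arrays only. Myog, a transcription factor of differentiating muscle, differed by 0.27 (SE 0.16) and Ncam1, an adhesion molecule of young and denervated fibres, by 0.25 (SE 0.13). By the value table's groups these were 0.09, -0.13 and 0.05. None of the 13 had groups apart by the scanner labels, and Myf5 was well above background on no array.

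The 16 regulators of fibre type were split, with 8 higher and 8 lower (median -0.01), and 0 past the adjusted threshold. Six4, a homeobox factor that binds fast muscle genes, read 2.34, 2.67, 2.17 and 2.28 in the controls and 1.62, 1.65, 1.82 and 1.93 after P. gingivalis. All P. gingivalis arrays lay below all controls, with a difference of -0.61 (SE 0.12, limma unadjusted p = 8.6e-04, adjusted p = 0.309). Vgll2, a muscle cofactor of TEAD factors, read 5.63, 5.44, 5.48 and 5.54 in the controls and 5.38, 5.31, 5.27 and 5.21 after P. gingivalis, without overlap (difference -0.23, SE 0.07, limma adjusted p = 0.349). Ppard, a nuclear receptor of oxidative metabolism, differed by -0.22 (SE 0.07). Under the value table's grouping Six4 differed by -0.02, Vgll2 by -0.07 and Ppard by -0.01, and the groups overlapped for all 16. Of the 16 regulators by the scanner labels, 3 had groups apart, 1 higher and 2 lower, against 7.07% of tested genes.

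Genes of myosin folding, assembly and turnover were 5 higher and 8 lower of 13 (median -0.01). Hsp90aa1, a chaperone that folds the myosin head, differed by -0.26 (SE 0.10, limma unadjusted p = 0.0330). Unc45b, the myosin-specific chaperone, differed by -0.13 (SE 0.09) and titin (Ttn), the scaffold of the thick filament, by -0.08 (SE 0.07). The groups overlapped for all 13. Under the value table's grouping Hsp90aa1 was at -0.18, Unc45b at 0.02 and Ttn at -0.01, and 1 of the 13 had groups apart. The smooth muscle and non-muscle myosin II heavy chains were 2 higher and 2 lower, with Myh14 at -0.15 (SE 0.08), Myh11 at 0.16 (SE 0.13) and Myh10 at 0.13 (SE 0.14).

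**Figure D5:**
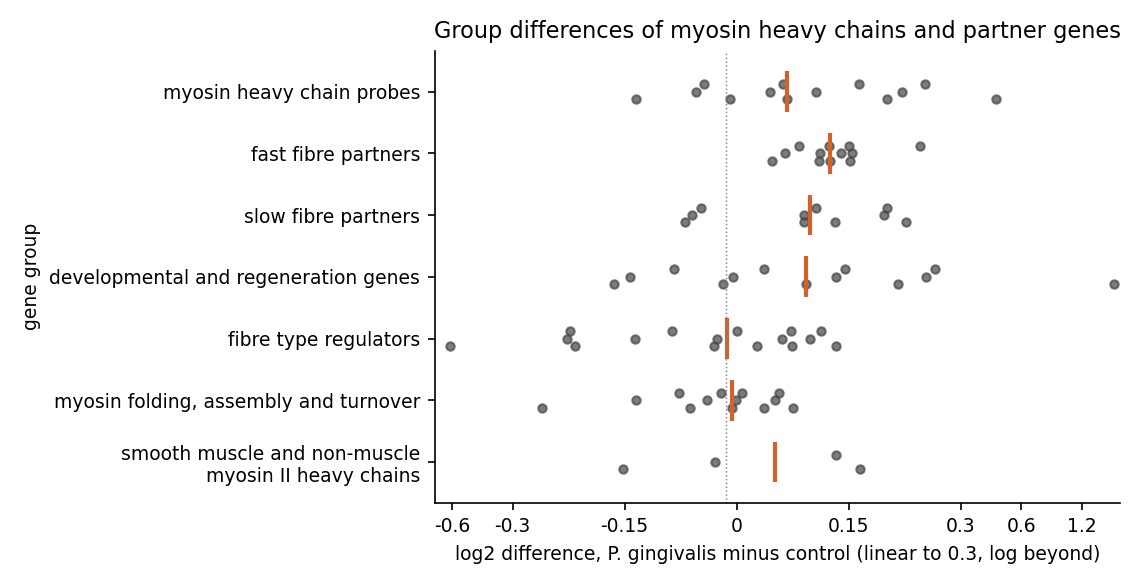
Log2 difference of P. gingivalis minus control (x axis, linear up to 0.3 in size and logarithmic beyond) for the 13 myosin heavy chain probes and the tested genes of 6 partner lists (y axis). Points are probes or genes, orange bars medians, and the dotted line the median of all tested genes (-0.01). All 12 fast fibre partners lie to the right of 0, with a median of 0.12, which is -0.02 under the value table's grouping.

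For each member the 3 genes most alike over the 8 arrays were found among 14886 genes by Pearson correlation with its brightest tested probe. For Myh7 they were Tnnc1 (r = 0.95), Lrrc8c (r = 0.94) and Atp2a2 (r = 0.92), so 2 of the 3 are slow fibre genes of the lists above. Myh4 had Tpt1 (r = 0.98), COX2 and Neurog1. Myh1 had Ror2 (r = 0.96), Gm40617 and Ttc9, and Myh2 had Atp10a (r = 0.97), Hsd3b7 and Sp6. Myh8 had Scaf1 (r = 0.96), Lyrm1 and Ext1, and Myh3 had Tbx21 (r = 0.99), Gpat4 and Zbtb37. Myh6 had Gm5643 (r = 0.96), Stambpl1 and Cilp, Myh7b had Hk2 (r = 0.95), Endog and Celsr2, and Myh13 had Gpsm2 (r = 0.97), Ppara and Oxct1. With so many genes and 8 arrays, each member found 3 genes above r = 0.92, and these names are a description of the arrays. Among members themselves r ran from -0.21 (Myh7 and Myh8) to 0.87 (Myh2 and Myh13).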

How the data were processed

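The authors' deposited scanner files hold spot intensity from Agilent Feature Extraction (11.0.1.1 per the file headers, 11.1 per the submitters' processing notes), background-subtracted and not normalized between arrays. The deposited value table holds log2 signals of 24764 probes, 11 of the 13 tested members among them, with probe choice and exact scaling unstated. Levels are log2 intensities minus each array's 75th percentile (all non-control spots), averaged over a probe's spots with outlier flags left out. Probes well above background on at least 4 of 8 arrays were tested with limma 3.58.1 in R 4.3.3 (lmFit, eBayes, no covariate) and Benjamini-Hochberg adjustment over 31649 probes. Genes in lists are read by the tested probe of highest mean signal. Current names came from the RefSeq table of GRCm38.p6, used for names only, and coordinates are mm9 per the file headers. Probe sequences are those of the scanner files.

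Single values were compared with two-sided exact permutation tests (70 assignments of arrays; 40320 orders for a correlation), using scipy 1.17.1. Named were all member probes, the 3 genes of lowest p in each partner list and the 3 genes most alike per member. The other slow partners, Pvalb, the marker genes and the transcripts beside the members were named beside them after their values were seen. The members and lists were chosen with earlier results of these data known. The fit was tested on simulated data. Alternatives were quantile and median scaling, normexp background with offset 50, no filter, an intensity trend, a replicate block, other groupings by the value table, other probes and each array left out. The percentile over distinct probes was added after the data were seen. All gene lists were described by counts and medians without a set test.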

Additional observations from a re-analysis of the deposited data

Results flagged for a closer look

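In 38 groups of 4 arrays, the lowest or highest array was compared with its nearest neighbour, and in 2 groups it stood apart beyond Dixon's critical value for its gap over the range. Both were control array 2, at the Myh2 head probe (-1.01) and at the Myh6 probe (-0.16). Chance flags about 1 in 20 groups. The same array was the lowest control for Myh1, Myh7b, Myh13 and the 3′ probes of Myh2, Myh3 and Myh8. It was so too for the Myh2 probe of the other transcript. The part of this array in these differences was not tested beyond leaving it out.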

How the results depend on the processing

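The adjusted count over all probes was 0 in the main result and 14 with normexp, 2 without the filter, 2 with an intensity trend and 1 with the value table under the scanner labels, and 0 member probes passed under any of the 19 alternatives. Probes at an unadjusted p under 0.05 numbered 9108 with normexp, 1224 under the value table's grouping and 906 with the table's own labels. Probes without overlap numbered 5632, 758 and 557 in the same order and 13781 over the 4 arrays of agreed group. Member probes at an unadjusted p under 0.05 numbered 2 with median scaling, normexp, the percentile over distinct probes or an intensity trend. They numbered 0 with quantile scaling and with the 4 alternatives that use the value table.

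Some log2 differences changed direction, and the cause was not tested. With normexp, Myh1 was -0.022 and Myh6 was -0.015. With quantile scaling, the Myh2 head probe was 0.0030. With median scaling, the Myh2 head probe was 0.0095. With the percentile over distinct probes, the Myh2 head probe was 0.0076. Under the value table's grouping, Myh1 was -0.028, the Myh2 head probe was 0.13, the Myh2 3′ probe was 0.063, Myh3 was -0.26, the intron-spanning Myh4 probe was 0.16, Myh7b was -0.070, Myh2 minus Myh4 was 0.050, Myh2 minus Myh1 was 0.091 and Myh7 minus Myh2 was -0.0091. Over the 4 arrays of agreed group, the Myh2 head probe was 0.12, the Myh2 3′ probe was 0.019 and the intron-spanning Myh4 probe was 0.023. With the table's own values and labels, Myh1 was -0.055, the Myh2 head probe was 0.078, Myh3 was -0.26, the intron-spanning Myh4 probe was 0.14, the Myh4 head probe was 0.0049 and Myh7b was -0.070. With its values under the scanner labels, Myh1 was -0.0042 and the Myh4 head probe was 0.013. With other probes of the genes, Myh2 minus Myh4 was 0.091, 0.011, 0.13, 0.046, 0.089, 0.39 and 0.31, Myh1 minus Myh4 was 0.20 and 0.12, Myh2 minus Myh1 was 0.19 and Myh7 minus Myh2 was -0.052. The fast partner median was 0.047 with quantile scaling, -0.018 under the value table's grouping, -0.0045 with its own values and labels and 0.032 with its values under the scanner labels. The last left 2 slow partners correlated with Myh7, with 8 of the 10 in the table.

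With each array left out, log2 differences ran for the Myh2 head probe from -0.20 to 0.079, Myh7 minus Myh4 from -0.63 to 0.57, Myh6 from -0.19 to 0.16, Myh7 from -0.43 to 0.74, Myh7b from -0.064 to 0.21, Myh13 from -0.064 to 0.16, Myh7 minus Myh1 from -0.49 to 0.66, the Myh2 3′ probe from -0.14 to 0.0071 and Myh7 minus Myh2 from -0.38 to 0.74. Non-overlapping probes then numbered 3072 to 4119, member probes at an unadjusted p under 0.05 numbered 1 to 2, and slow partners correlated with Myh7 numbered 1 to 4. Same-numbered arrays did not deviate together (correlations -0.03 to 0.07), and differently numbered arrays had correlations of -0.17 to 0.19. Pairing that acts on few genes would not show in such correlations, so whether the numbers pair samples was not settled. With the number as a replicate block the Myh8 difference was 0.22 (limma adjusted p = 0.436), and the block changed no call. Signal over background limited the 7 untested probes. Myh7 and Myh3 had within-group spreads larger than for 99.9% and 98.8% of tested probes, with 4 arrays a group. Whether more arrays would show a difference was not tested.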
